A study of Mus musculus with 16 samples.

Results

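The comparison described here set colon RNA of Il10-/- mice fed eicosapentaenoic acid (EPA) against colon RNA of Il10-/- mice fed oleic acid (OA). It rests on 4 of the 16 arrays of the series, 2 for each diet, taken by the mouse strain and diet in the array titles. The study placed male Il10-/- mice and male C57BL/6J mice on 4 diets for 6 weeks, with 6 mice of a genotype on each diet. The EPA diet was a fat-free AIN-76A base with 1% corn oil and 3.7% EPA, and in the OA diet 3.7% oleic acid took the place of EPA. The other diets were CO, the AIN-76A control diet, and AA, with 3.7% arachidonic acid. All diets held 5% fat. Every mouse, C57BL/6J included, had been given Enterococcus faecalis, E. faecium and a complex intestinal flora by mouth, was 28 to 35 days old at the start and was sampled after 77 days of age. Food was matched daily to the intake of the Il10-/- mice, and the mice were fasted overnight and refed before sampling. The Il10-/- mice were of the strain B6.129P2-IL10<tm1Cgn>/J, in which the Il10 gene is inactivated in the germ line, and the C57BL/6J mice carried no such allele. Each array held a pool of colon RNA from 2 to 3 mice against a common reference RNA of intestine, kidney, liver and fetuses of Swiss mice. Every level below is a log2 ratio to that reference, and every difference is EPA minus OA on the log2 scale unless another comparison is named.

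Interleukin 10 restrains the response of immune cells to gut bacteria, and mice without it develop colitis that is driven by T cells and interferon gamma. EPA is a long-chain n-3 fatty acid of fish oil. It enters membrane lipids in place of arachidonic acid and is a weaker substrate for prostaglandin synthesis. It also activates the fatty acid receptor PPAR alpha and lowers the processing of the lipid regulator SREBP1. Oleic acid is a monounsaturated fatty acid and served as the control fat. Colitis is known to lower the detoxifying, fat-burning and transporting genes of the mature colonocyte and to raise genes of immune cells and of dividing crypt cells.

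The title of OA pool 1 names the OA diet, while its source name says EPA, and the array was counted as OA after its title. Over 23562 genes and unnamed features, OA pool 1 lay nearest to OA pool 2, with a standard deviation (SD) of the log2 differences of 0.172. Its SD was 0.21 to EPA pool 1 and 0.227 to EPA pool 2. The EPA pools lay farthest apart of the 6 pairs, at 0.238, and EPA pool 2 was at 0.188 from OA pool 2. The EPA pools therefore differed from each other by more than either differed from its nearest OA pool. The targeted gene Il10 read 0.62 and 0.45 on EPA and 0.73 and 0.58 on OA, and it ran from 0.38 to 0.77 over the 8 Il10-/- arrays against -0.32 to -0.05 over the 8 C57BL/6J arrays. On CO it was higher in Il10-/- mice by 0.89 ± 0.11 (limma adjusted p = 0.000508). The probe's place in the gene was not looked up here, so it cannot be said whether it lies outside the altered stretch, and the signal checks no genotype label. In bulk colon RNA, fewer cells of a type and less RNA per cell cannot be told apart.

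No gene passed the test. limma called 0 of 23562 genes and unnamed features at an adjusted p under 0.05 (percent called 0.0), and 1042 (4.42%) had an unadjusted p under 0.05, with 546 higher (2.32%) and 496 lower (2.11%) on EPA. The smallest adjusted p was 0.169, for Ugt2b5 and an unnamed feature. With 2 arrays against 2, an exact two-sided permutation test of a single gene cannot go below p = 0.333. Both EPA arrays lay above both OA arrays for 4290 genes (18.2%) and below them for 3721 (15.8%). The difference was above 0 for 51.5% of all genes, its median was 0.00, it exceeded 1 for 23 genes (0.0976%) and it lay below -1 for 4 (0.017%). Without OA pool 1 the count called stayed at 0, and with that pool counted as EPA it was also 0, with 447 genes at an unadjusted p under 0.05. The values that follow are therefore levels and differences without a call in this comparison.

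Several genes of detoxification were among the 12 named genes with the smallest p that were higher on EPA, beside Slc9a3, Pdk4, Ank3 and others described further on. These 12 were taken only from genes without overlap between the diets, so their lack of overlap was set by the choice. Ugt2b5, whose enzyme attaches glucuronic acid to steroids and drugs, was at -2.30 and -2.33 on EPA and at -3.24 and -3.16 on OA. The arrays of each diet nearly coincided, and the difference was 0.88 ± 0.12 (SE of the limma fit; adjusted p = 0.169). It was called when only the 8 Il10-/- arrays were fitted (limma adjusted p = 0.0400) and with array weights (0.0197). Sult1a1, a sulfotransferase for phenols, was at 1.64 and 1.27 on EPA against 0.20 and -0.11 on OA, a difference of 1.41 ± 0.26. Cbr3 and Cbr1, carbonyl reductases, differed by 1.70 ± 0.32 and 1.01 ± 0.18. Cbr1 was at 0.21 and 0.15 on EPA and at -0.80 and -0.84 on OA. Nqo1, a quinone reductase, differed by 0.76 ± 0.15. The drug efflux pump Abcb1a was at 2.19 and 1.36 against 0.59 and 0.47, with EPA pool 1 well above EPA pool 2. Abcb4, a phospholipid pump, showed the same order of arrays and differed by 1.34 ± 0.27.

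**Figure D1:**
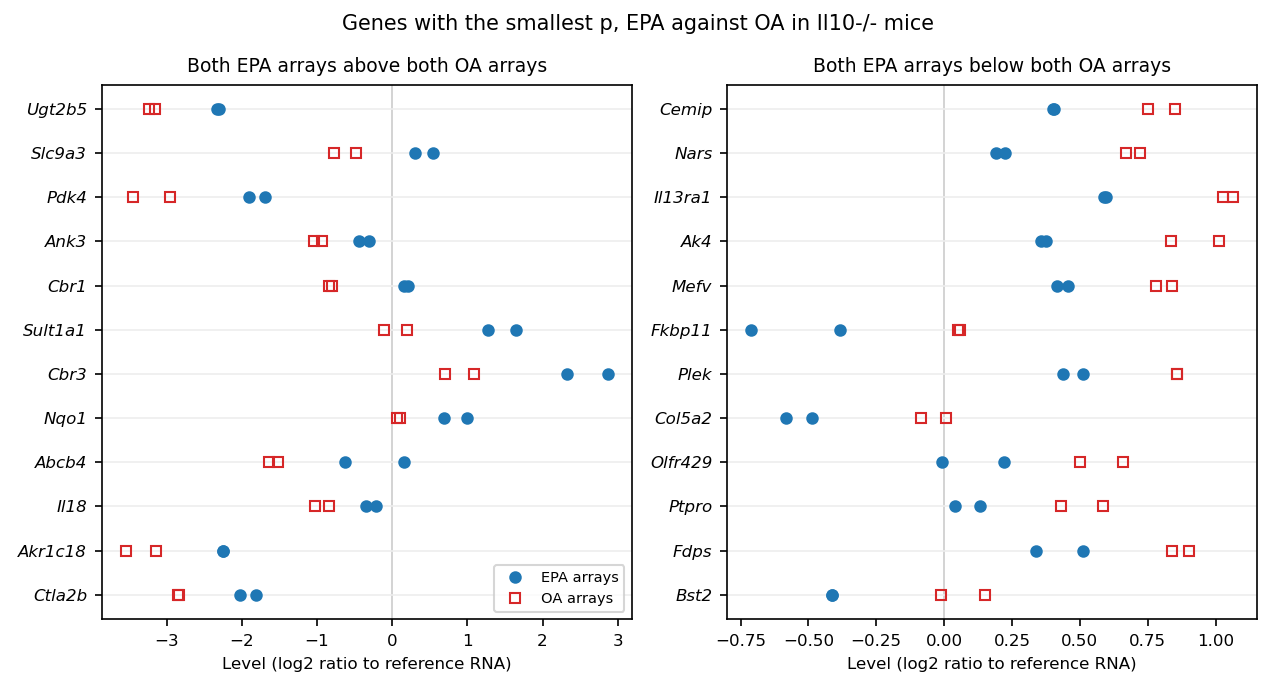
Levels (log2 ratio to the reference RNA, horizontal axis) of the 12 named genes with the smallest p whose EPA arrays (filled circles) both lie above the OA arrays (open squares), left, and of the 12 whose EPA arrays both lie below, right. The distances are larger on the left, up to 1.70 for Cbr3, than on the right, where the largest is -0.60 for Fkbp11.

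The gene lists below were chosen with earlier results of these data known, so their shares are not independent of these data. Xenobiotic metabolism genes lay on the EPA side as a list. Of 79 tested genes, 67 were above 0 and 12 below, with a median of 0.20 against 0.00 over all genes. Both EPA arrays exceeded both OA arrays for 38 of them (48.1%, against 18.2% of all genes). The reverse held for 2 (2.53%, against 15.8% of all genes). An unadjusted p under 0.05 was reached by 27 of the 79, all higher on EPA, while 0 were called by limma. Over all genes 4.42% reached it, with 2.32% higher on EPA. The list mean was -0.53 and -0.74 on EPA and -0.94 and -1.04 on OA, so the groups did not overlap, and EPA pool 1 was the highest array. The families inside the list differed in size. All 8 tested carboxylesterases were above 0, with a median of 0.60 and a range of 0.15 for Ces2e to 1.51 for Ces1g. Ces1g, which cleaves lipid and drug esters, was at 1.02 and -0.34 on EPA and at -1.15 and -1.19 on OA, so EPA pool 2 lay nearer to OA than EPA pool 1 did. All 5 tested glucuronosyltransferases were above 0 (median 0.51), as were 13 of 14 glutathione S-transferases (median 0.20), 15 of 18 cytochromes P450 (median 0.26) and 4 of 5 sulfotransferases (median 0.32). Aldh1a1, a retinaldehyde dehydrogenase, was at the array's most shared value on EPA pool 1 and was not tested. It was at -0.10 on EPA pool 2 and at -1.05 and -1.16 on OA.

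Fatty acid oxidation genes and targets of PPAR alpha were also higher on EPA. Pdk4, a PPAR alpha target that encodes a pyruvate dehydrogenase kinase, was at -1.69 and -1.90 on EPA and at -3.45 and -2.96 on OA. Its difference of 1.41 ± 0.22 (limma adjusted p = 0.193) was the largest of the list. The mitochondrial acylcarnitine carrier Slc25a20 was at 1.58 and 1.32 against 0.96 and 0.93. The peroxisome gene Pex11a differed by 0.62 ± 0.16, the peroxisomal thiolase Acaa1b by 0.65 ± 0.19 and the receptor Ppara itself by 0.54 ± 0.17. Ppara was at -1.05 and -1.42 on EPA and at -1.84 and -1.71 on OA. Of 46 tested members 39 were above 0, with a median of 0.21, and 26 (56.5%, against 18.2% of all genes) had both EPA arrays above both OA arrays. The reverse held for 1 (2.17%, against 15.8% of all genes). Other PPAR alpha targets differed less. Angptl4, an inhibitor of lipoprotein lipase, was at -0.74 and -1.08 on EPA and at -1.18 and -1.06 on OA (0.21 ± 0.42). The fatty acid transporter Cd36 also overlapped (-0.14 ± 0.38). Cpt1a, which admits fatty acids to the mitochondrion, did not, at 0.46 and 0.02 against -0.01 and -0.07, but its difference was small (0.28 ± 0.19).

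Transport genes of the colonocyte surface followed. Slc9a3, the sodium and proton exchanger of the brush border, was at 0.54 and 0.31 on EPA and at -0.77 and -0.48 on OA. Its difference was 1.05 ± 0.17 (limma adjusted p = 0.193). The gene was averaged over 2 features that disagreed, with differences of -0.01 and 2.11. The carbonic anhydrase Car2 was at 0.05 and -0.47 against -1.07 and -1.56, and the bile acid carrier Slc10a2 at 1.12 and 0.39 against -0.53 and -0.23. Slc16a3, which exports lactate, went the other way, at -0.65 and -0.48 on EPA and -0.08 and 0.16 on OA. Slc26a3, the chloride exchanger, was at 0.61 and 0.73 against 0.53 and 0.14, without overlap but within its error (0.33 ± 0.38). Of 69 members 52 were above 0 (median 0.22), 36 (52.2%, against 18.2% of all genes) had both EPA arrays above both OA arrays and 4 (5.8%, against 15.8%) had them below. The list mean was -0.05 and -0.28 on EPA and -0.38 and -0.42 on OA.

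Hormone and granule genes of enteroendocrine cells were higher on EPA. Chgb, a granin of hormone granules, was at 0.45 and 0.42 on EPA and at -0.39 and -0.47 on OA. The arrays of each diet lay close together, its 10 features differed by 0.79 to 0.94, and the difference was 0.87 ± 0.20 (limma adjusted p = 0.654, and 0.0405 when only the 8 Il10-/- arrays were fitted). Chga, a related granin, was at 0.59 and 0.36 against -0.22 and -0.25. Gcg, which encodes glucagon-like peptides, differed by 0.57 ± 0.15, although its 2 features gave 0.10 and 1.03. Cck, the cholecystokinin gene, differed by 0.41 ± 0.11 and the peptide YY gene Pyy by 0.47 ± 0.25. Nts, the neurotensin gene, was singled out after its values were seen, at 1.64 and 1.12 on EPA and 0.02 and 0.01 on OA. Of 39 members 33 were above 0 (median 0.19), and 23 (59.0%, against 18.2% of all genes) had both EPA arrays above both OA arrays, with 0 below (15.8% of all genes). The list mean was 0.12 and 0.02 on EPA and -0.18 and -0.15 on OA.

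Cholesterol synthesis genes were lower on EPA. Fdps, which makes farnesyl diphosphate, was at 0.34 and 0.51 on EPA and at 0.90 and 0.84 on OA, a difference of -0.45 ± 0.11 (limma adjusted p = 0.654). The sterol demethylase Cyp51 was at -0.01 and 0.05 against 0.51 and 0.42, and the squalene oxidase Sqle at 0.63 and 0.69 against 1.03 and 1.09. Hmgcs1, which makes the precursor of mevalonate, was at 0.35 and 0.34 against 0.78 and 0.68. In all 4 genes the diets did not overlap. Of 30 members 27 were below 0 (median -0.19). Both EPA arrays lay below both OA arrays for 16 (53.3%, against 15.8% of all genes) and above for 0 (18.2% of all genes). Srebf2, which encodes the pathway regulator SREBP2, overlapped between the diets (-0.10 ± 0.11). Srebf1 was at -0.46 and -0.15 on EPA against 0.07 and 0.06 on OA. The promoter of Hmgcs1 is shown because it held the sterol regulatory element TCACNCCAC, to which SREBP2 binds. The motif was searched on both strands in windows from 250 bases before to 50 bases after the start of a gene (RefSeq, GRCm38.p6), and its match is in capitals. The window is chr13:119690101-119690400 on the plus strand.
Hmgcs1: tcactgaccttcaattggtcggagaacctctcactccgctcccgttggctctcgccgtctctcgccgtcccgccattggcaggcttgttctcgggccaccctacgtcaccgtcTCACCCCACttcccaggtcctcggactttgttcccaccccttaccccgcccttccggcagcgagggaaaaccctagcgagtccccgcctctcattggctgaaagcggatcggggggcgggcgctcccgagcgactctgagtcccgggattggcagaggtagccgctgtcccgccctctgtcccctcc
Of 35 promoters of the list, which covered 27 genes, 1 (2.86%) held the motif, against 1.24% of all 32851 promoters. The direct repeat element of nuclear receptors, to which PPAR alpha binds, was in 0 of 48 promoters of the fatty acid oxidation list and in 0.0396% of all promoters.

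Interferon gamma response genes lay on the lower side on EPA, and EPA pool 1 was the lowest array. Gbp4, an interferon-induced GTPase, was at 0.45 and 1.26 on EPA and at 1.92 and 2.16 on OA. The diets did not overlap, and the difference was -1.18 ± 0.29 (limma adjusted p = 0.654). Cxcl9, which attracts T cells, was at 0.98 and 1.85 against 2.04 and 2.16, and Gbp6 at 0.07 and 0.55 against 0.85 and 0.82. The tryptophan tRNA synthetase Wars, also induced by interferon gamma, was at 0.60 and 0.88 against 1.26 and 1.30. Cxcl10, a second T cell attractant, was at 0.11 and 1.46 on EPA and at 0.94 and 1.35 on OA, so that EPA pool 1 alone was low. Of 32 members 27 were below 0 (median -0.21), but both EPA arrays lay below both OA arrays for 10 (31.2%, against 15.8% of all genes). The list mean was 0.52 and 0.82 on EPA and 0.86 and 1.01 on OA. The median was -0.11 without EPA pool 1 and -0.37 without EPA pool 2. Ifng itself, at 0.89 and 1.49 on EPA and 1.21 and 1.48 on OA, overlapped between the diets.

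Among other inflammatory genes, several well-known mediators overlapped between the diets, while chemokine genes often did not. Tnf was at 1.36 and 1.52 on EPA and at 1.50 and 1.80 on OA, Il1b at 3.03 and 3.31 against 3.23 and 3.39, and H2-Ab1, which presents antigen on MHC class II, at 2.50 and 2.38 against 2.47 and 2.53. All 3 genes overlapped between the diets. The neutrophil genes S100a8 and S100a9, calcium-binding proteins, differed by 0.27 ± 0.31 and 0.35 ± 0.42, and the iron-binding Lcn2 by -0.14 ± 0.26. Il18, an epithelial cytokine, was at -0.22 and -0.35 on EPA and at -1.03 and -0.84 on OA. Its difference of 0.65 ± 0.13 put it among the 12 genes with the smallest p that were higher on EPA. Il13ra1, a subunit of the interleukin 13 receptor, was at 0.59 and 0.60 against 1.06 and 1.03. Chemokines and receptors had 18 of 43 members above 0 (median -0.03), with both EPA arrays below both OA arrays for 17 (39.5%, against 15.8% of all genes) and above for 10 (23.3%, against 18.2%). Inflammatory cytokines and receptors had 10 of 43 above 0 (median -0.06). Of the 43, 12 lay below without overlap (27.9%, against 15.8% of all genes) and 4 above (9.3%, against 18.2%). Antimicrobial and acute phase genes had 12 of 28 above 0 (median -0.03). Of the 28, 9 lay below without overlap (32.1%, against 15.8%) and 3 above (10.7%, against 18.2%). MHC class II genes had 6 of 15 above 0 (median -0.01). Of the 15, 3 lay below without overlap (20.0%) and 2 above (13.3%), near the 15.8% and 18.2% of all genes. Of the 45 antimicrobial genes listed, 13 were at the most shared value on at least 1 array and were not tested.

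Genes of cell division mostly had lower means on EPA, and EPA pool 1 was the lowest array. Ccnd1, the cyclin that starts division, was at 0.53 and 0.68 on EPA and at 1.04 and 1.09 on OA, a difference of -0.46 ± 0.13. The mitotic kinase Plk1 was at 0.45 and 0.58 against 0.88 and 0.81, the spindle genes Tpx2 at 0.18 and 0.51 against 0.71 and 0.66 and Kif23 at 0.68 and 0.94 against 1.29 and 1.13. Of 53 members 47 were below 0 (median -0.20), with both EPA arrays below both OA arrays for 24 (45.3%, against 15.8% of all genes) and above for 2 (3.77%, against 18.2%). The list mean was 0.13 and 0.35 on EPA and 0.46 and 0.39 on OA, and the distance of EPA pool 2 from OA was small. Without EPA pool 1 the list median was -0.05, and without EPA pool 2 it was -0.34. Among the genes with the smallest p lower on EPA were also Cemip, which degrades hyaluronan (-0.40 ± 0.08), the asparagine tRNA synthetase Nars (-0.49 ± 0.10), the adenylate kinase Ak4 (-0.56 ± 0.12) and the antiviral Bst2 (-0.48 ± 0.12). Fkbp11, a prolyl isomerase of the secretory pathway, was at -0.71 and -0.39 on EPA and at 0.06 and 0.05 on OA. Plek and Mefv, genes of myeloid cells, differed by -0.38 ± 0.09 and -0.37 ± 0.08. Col5a2, a collagen gene, differed by -0.50 ± 0.11, the receptor phosphatase Ptpro by -0.42 ± 0.10 and the olfactory receptor gene Olfr429 by -0.47 ± 0.11.

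Several marker lists of other cell types lay on 1 side or the other as well. Macrophage markers had 23 of 27 members below 0 (median -0.18) and list means of 0.57 and 0.65 on EPA against 0.74 and 0.79 on OA. Aif1, a macrophage marker, was at 0.91 and 1.36 against 1.37 and 1.64, Adgre1, which encodes F4/80, at 0.14 and 0.55 against 0.65 and 0.71, and Clec4d, a lectin, at 1.20 and 1.49 against 1.86 and 2.01. Cd163, a scavenger receptor of resident macrophages, went the other way, at 0.52 and 0.57 against 0.19 and 0.16. Smooth muscle markers had 12 of 16 members above 0 (median 0.24). For 8 of these markers both EPA arrays lay above both OA arrays (50.0%, against 18.2% of all genes), and for 0 below (15.8% of all genes). Their list mean was 0.08 and -0.01 on EPA and -0.23 and -0.13 on OA. Myh11, the smooth muscle myosin, was at 1.88 and 1.50 against 0.87 and 1.11, and the actin Acta2 at 0.58 and 0.71 against 0.12 and 0.28. Neuron and glia markers (16 of 19 above 0, median 0.09), adipocyte markers (12 of 16, median 0.11) and pancreatic enzyme genes (13 of 17, median 0.16) lay on the same side, and collagen and stroma markers on the other (6 of 22, median -0.09). The pancreatic enzyme list mean was low, at -1.82 and -1.84 on EPA and -1.95 and -1.97 on OA. The adipocyte median was 0.21 without EPA pool 1 and 0.0084 without EPA pool 2. The collagen median was -0.045 without OA pool 1 and -0.007 with that pool counted as EPA. Neutrophil, T cell, cytotoxic cell, B cell, goblet cell and endothelial markers had medians between -0.04 and -0.01. The part of the muscle, neuron and macrophage shares of the tissue in the other differences was not tested.

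Several clock genes did not overlap between the diets. Per1, a repressor of the clock, was at 1.24 and 0.69 on EPA and at 0.32 and 0.22 on OA. Arntl, its activator, was at -0.41 and -0.22 against 0.68 and 0.21, in the opposite direction. The clock output genes Dbp and Tef and the repressor Nr1d2, named after their values were seen, were higher on EPA by 1.06 ± 0.31, 0.65 ± 0.19 and 0.70 ± 0.23. Of 17 members 13 were above 0 (median 0.13), 9 with both EPA arrays above both OA arrays (52.9%, against 18.2% of all genes) and 3 below (17.6%, near the 15.8% of all genes). The mice were sampled in staggered groups, and the part of the hour of sampling was not tested.

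Fatty acid synthesis genes and eicosanoid genes differed little as lists, while single members such as Dpep1 differed more. The desaturases Fads1 and Fads2, which make long polyunsaturated fatty acids, were at -0.03 and -0.30 against 0.20 and -0.24, and at -0.01 and -0.31 against 0.06 and -0.01. Both overlapped between the diets. Scd1, which makes oleic acid, was at -0.91 and -1.33 on EPA and at -0.38 and -0.66 on OA, without overlap but with a wide error (-0.60 ± 0.61). Fatty acid synthesis, desaturation and elongation genes had 19 of 46 members above 0 (median -0.02). Of the eicosanoid genes, Ptgs2, the inducible prostaglandin synthase, differed by 0.08 ± 0.14 and Alox5, the first enzyme of leukotriene synthesis, by 0.14 ± 0.09. Hpgd, which inactivates prostaglandins, was at 0.96 and 0.26 on EPA and at 0.17 and -0.04 on OA. Dpep1, a dipeptidase that converts leukotriene D4, was at 0.28 and -0.14 against -1.24 and -0.93, the largest difference of the list (1.16 ± 0.31). The eicosanoid list had 33 of 59 members above 0 and a median of 0.02. The vitamin D receptor Vdr, in the list of retinoid genes and lipid receptors (27 of 36 above 0, median 0.11), was at 0.83 and 0.72 against 0.49 and 0.35.

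**Figure D2:**
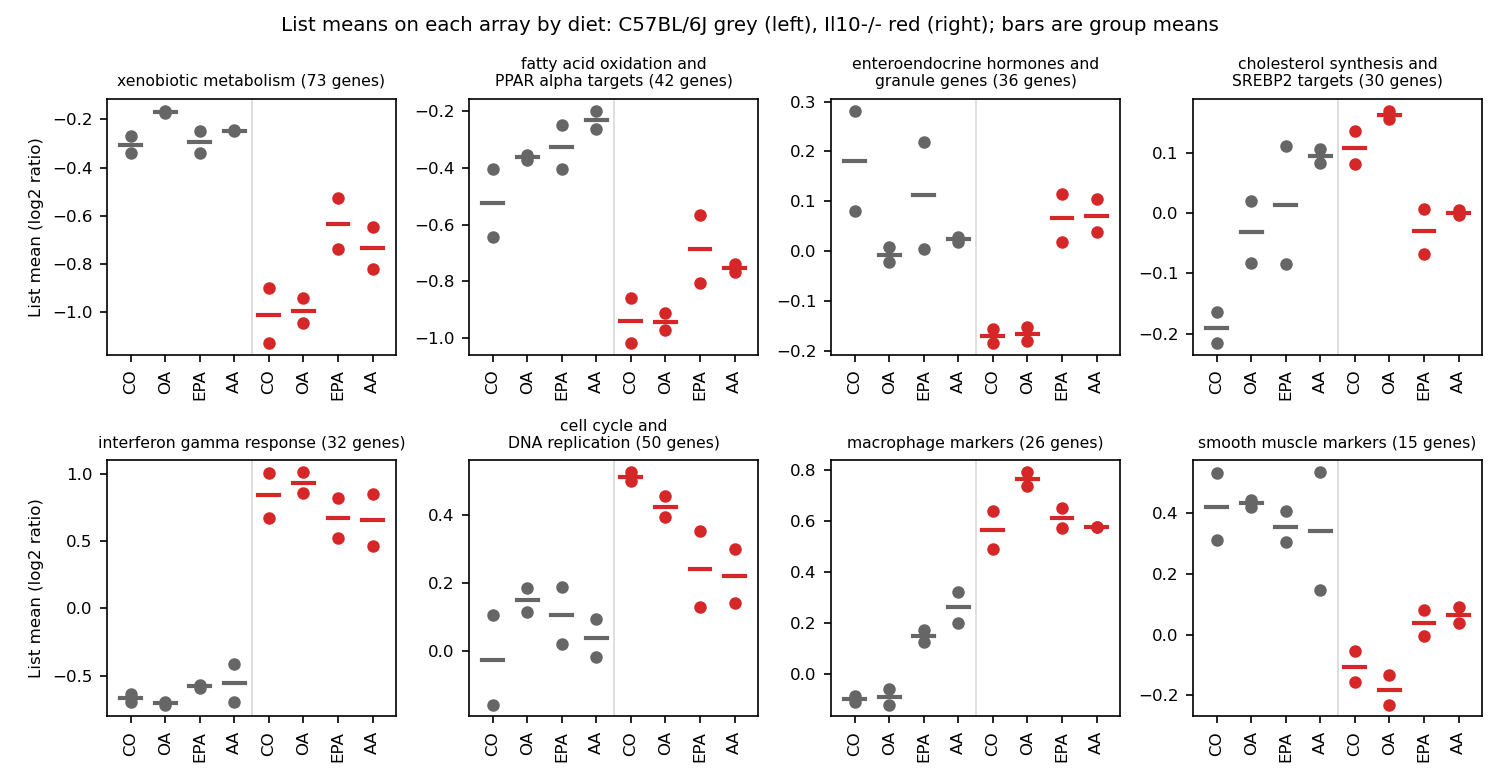
Mean level (log2 ratio to the reference RNA) of 8 gene lists on each of the 16 arrays by diet, C57BL/6J in grey and Il10-/- in red, with points for arrays and bars for group means over 2 arrays. The xenobiotic list mean of the Il10-/- mice was -0.53 and -0.74 on EPA and -0.94 and -1.04 on OA, and all Il10-/- arrays lay below the C57BL/6J arrays.

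The same diets were compared in C57BL/6J mice on 4 other arrays, to see the same change of fat without the inactivated Il10 allele. There limma called 0 of 23477 genes (percent called 0.0; 1493, or 6.36%, with an unadjusted p under 0.05), and the difference between the genotypes in EPA minus OA was also called for 0 genes (percent called 0.0; 1201, or 5.12%, unadjusted). The smallest limma adjusted p of that interaction was 0.243, for Ank3, a membrane scaffold gene. Its difference was 0.61 ± 0.11 with the inactivated Il10 allele and -0.48 ± 0.11 without it. For Ugt2b5 the C57BL/6J difference was -0.15 ± 0.12 (interaction adjusted p = 0.465 in limma), for Slc9a3 -0.13 ± 0.17 (0.563) and for Cbr1 -0.11 ± 0.18 (0.563). The list medians in C57BL/6J mice were -0.14 for xenobiotic metabolism, 0.01 for fatty acid oxidation, -0.06 for colonocyte transport, -0.02 for cholesterol synthesis and -0.05 for the cell cycle. They were 0.06 for enteroendocrine genes, 0.13 for interferon gamma genes and 0.22 for macrophage markers, and 0.71 for adipocyte markers. Chgb and Chga differed by 0.54 ± 0.20 and 0.40 ± 0.16 there, the same sign as in Il10-/- mice. No gene's diet difference was shown to differ between the genotypes. Across 23432 genes, which are not independent replicates and share the fit, the 2 diet differences correlated at r = 0.0527.

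**Figure D3:**
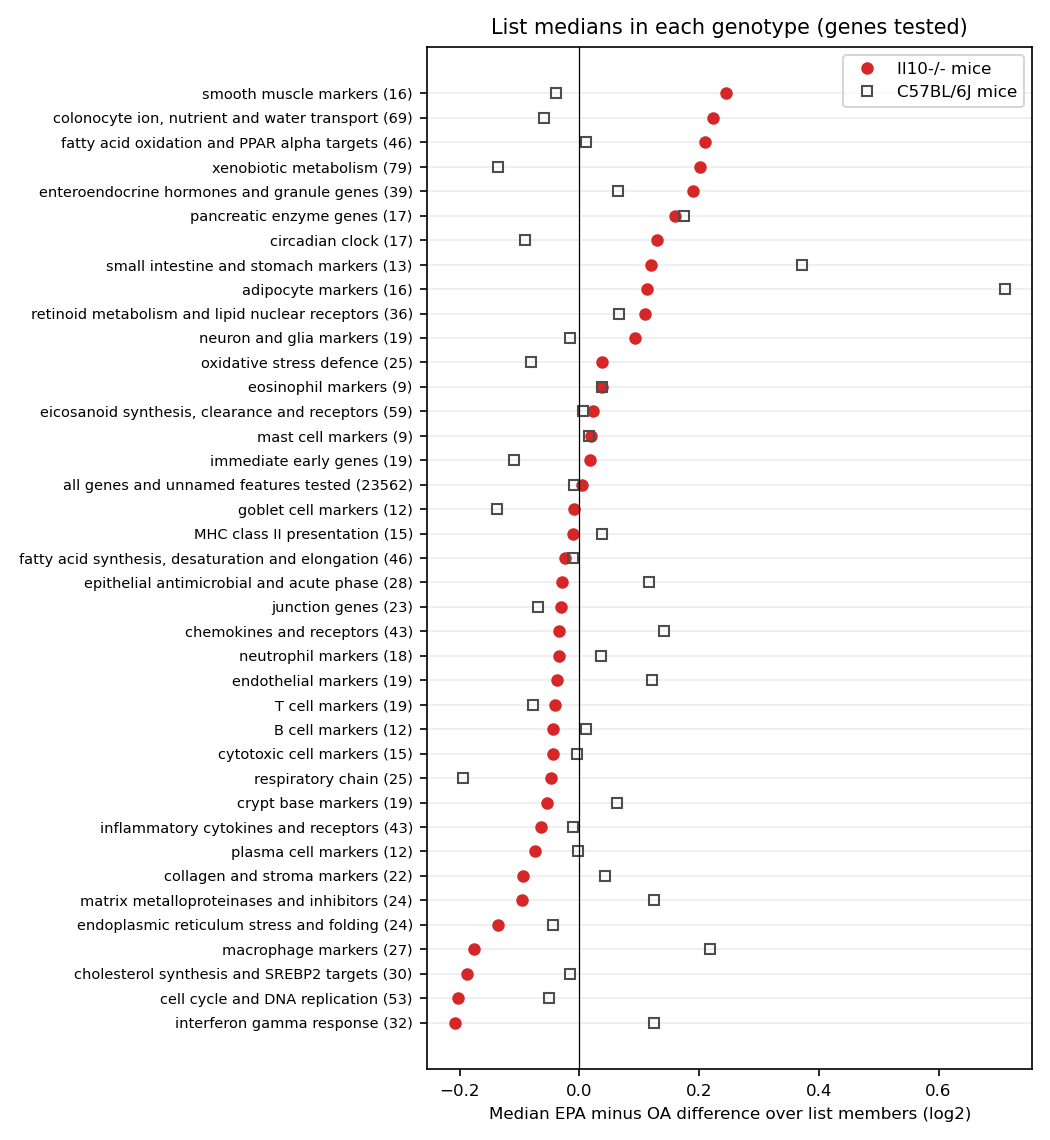
Median EPA minus OA difference (log2) over the tested members of each of 38 gene lists and over all genes, with filled red circles for the Il10-/- arrays and open squares for the C57BL/6J arrays, with the number of genes tested in Il10-/- mice in brackets. The Il10-/- medians run from -0.21 for interferon gamma genes to 0.24 for smooth muscle markers, and all genes together lie at 0.00.

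The diet difference was next set beside the genotype difference on CO, which was measured on arrays of neither diet. On CO limma called 2425 of 23509 genes (percent called 10.3), with 1448 higher (6.16%) and 977 lower (4.16%) in Il10-/- mice. The count was 762 with array weights, 1149 and 867 without the Il10-/- CO pools 1 and 2, and 3660 without C57BL/6J CO pool 1. Over these and the other alternatives run, the share of called genes with the opposite sign on EPA lay between 75.6% and 87.5%. Of the 1448 genes higher in Il10-/- mice, 1206 (83.3%) had a lower mean on EPA than on OA, and for 702 (48.5%) both EPA arrays lay below both OA arrays, with 67 (4.63%) above (over all genes, 18.2% lay above and 15.8% below). Of the 977 lower genes, 844 (86.4%) had a higher mean on EPA, and for 530 (54.2%) the EPA arrays lay above both OA arrays, with 37 (3.79%) below. The median difference was -0.15 for the former genes and 0.15 for the latter. In C57BL/6J mice the opposite sign occurred in 46.0% and 50.4% of the same genes. Across 23432 genes the EPA minus OA difference in Il10-/- mice and the genotype difference on CO correlated at r = -0.477 (Spearman's rho = -0.41), and the C57BL/6J diet difference and the genotype difference at 0.0274. Each of the 4 pairs of 1 EPA and 1 OA array gave r between -0.396 and -0.293. The arrays share the reference RNA and the genes share probes and base composition, so these values describe the arrays and carry no p.

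**Figure D4:**
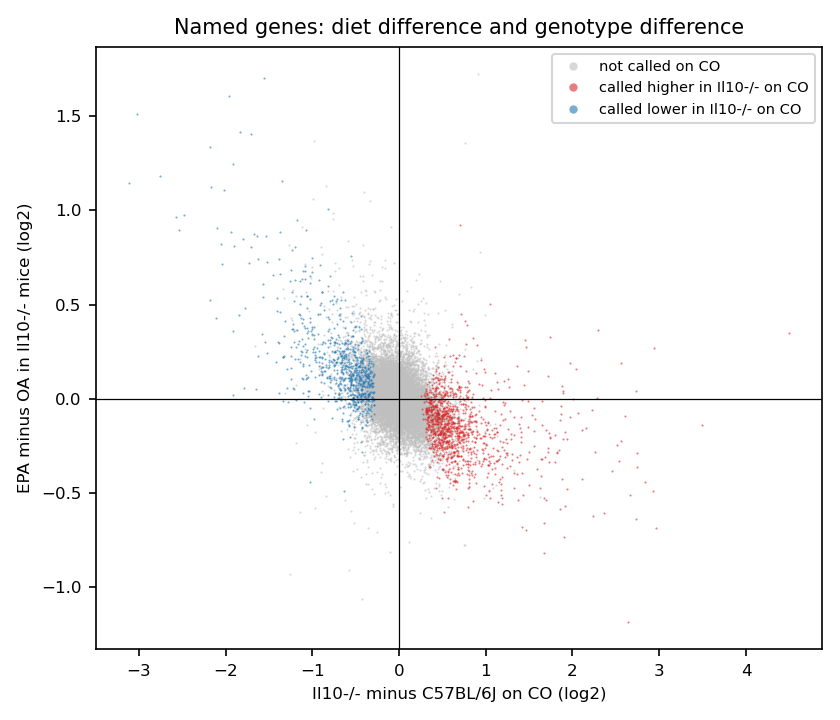
EPA minus OA in Il10-/- mice (vertical axis, log2) against Il10-/- minus C57BL/6J on CO (horizontal axis, log2), 1 point per named gene, coloured where the genotype difference was called. Genes called higher on CO lie mostly below the horizontal zero line (83.3% over genes and unnamed features) and genes called lower mostly above it (86.4%).

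Named genes show the sizes on both axes. Ugt2b5, lower in Il10-/- mice on CO by -1.37 ± 0.12, was higher on EPA by 0.88, and Ces1g, at -3.02 ± 0.40 on CO, by 1.51. Ppara stood at -1.57 ± 0.17 on CO and 0.54 on EPA. Gbp4, higher in Il10-/- mice on CO by 2.64 ± 0.29, was lower on EPA by -1.18, and the exporter gene Slc16a3 stood at 2.36 ± 0.19 and -0.60. Other genes with a large genotype difference had a far smaller difference between the diets. Examples were Tnf (1.74 ± 0.13 on CO, -0.21 on EPA), H2-Ab1 (2.22 ± 0.17 and -0.06) and S100a9 (4.50 ± 0.42 and 0.35). Slc9a3 and Akr1c18, an aldo-keto reductase, were not called on CO (-0.33 ± 0.17 and -0.41 ± 0.23). Ctla2b, a protease inhibitor gene, was higher in Il10-/- mice on CO (0.71 ± 0.20) and also higher on EPA (0.92).

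The array with conflicting labels was left out in turn. Without OA pool 1 the list medians were 0.30 for xenobiotic metabolism, 0.24 for fatty acid oxidation, 0.17 for enteroendocrine genes, 0.22 for colonocyte transport and 0.16 for smooth muscle. They were -0.19 for cholesterol synthesis, -0.30 for interferon gamma genes, -0.20 for the cell cycle and -0.21 for macrophage markers, and 0.15 for the clock. With the same pool counted as EPA, the medians were 0.26, 0.19, 0.08, 0.16 and 0.11 for the former lists and -0.14, -0.29, -0.11 and -0.13 for the latter, and 0.11 for the clock. No list median among these turned its sign. Without OA pool 1, Ugt2b5 differed by 0.84, Slc9a3 by 0.91, Pdk4 by 1.16, Chgb by 0.90, Fdps by -0.42 and Gbp4 by -1.30. Without EPA pool 1, Gbp4 differed by -0.77.

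The levels on the other diets of the Il10-/- mice were set side by side without a test. OA and CO were close for Ugt2b5 and Pdk4, and farther apart for Chgb, Sult1a1 and Gbp4. Ugt2b5 averaged -2.32 on EPA, -3.20 on OA and -2.08 on AA, and it was at -3.04 and -2.96 on CO. In C57BL/6J mice on OA it averaged -1.47. Pdk4 averaged -1.80 on EPA, -3.20 on OA, -3.19 on CO and -1.78 on AA. In the same order, Chgb averaged 0.44, -0.43, -0.75 and 0.39 and Sult1a1 1.46, 0.04, -0.47 and 1.17. In these 4 genes EPA and AA were both above OA and CO. Gbp4 averaged 0.86 on EPA, 2.04 on OA, 1.75 on CO and 1.18 on AA. The list mean of xenobiotic genes was -0.90 and -1.13 on CO and -0.82 and -0.65 on AA, and that of the cell cycle was 0.50 and 0.53 on CO and 0.30 and 0.14 on AA.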

How the data were processed

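Colon RNA pools of 2 to 3 mice (Cy3) were hybridised with a common reference RNA (Cy5) on 16 two-colour arrays, 1 RNA pool each. The authors deposited 1 processed log2 ratio for each of 44290 features and array, and limma is named in the submitters' processing notes. For the background correction and the normalization, no description is given in the sources used here. The log base is likewise unstated, and base 2 was assumed. Markers of the reference tissues averaged -2.29 to -1.73 on the 16 arrays, so the ratio was read as sample over reference. No dye swap is named, so dye and sample cannot be told apart. The value most shared by features of an array (tolerance 1e-09) was set to missing. Features of a symbol measured on all 16 arrays were averaged. Where a symbol had none, the 1 feature measured on all 4 arrays with values on most arrays was taken. Genes with a value on all 4 arrays entered 1 fit of 8 groups in limma 3.58.1 under R 4.3.3 (residual degrees of freedom 8, prior 4.03). The adjustment was Benjamini-Hochberg, with a threshold of 0.05. Tables were made in Python 3.11.15 with pandas 2.3.3 and numpy 2.4.6, and figures with matplotlib 3.10.9. The fit was tested on simulated data. Named genes were the 12 with the smallest p in each direction without overlap, the 4 members of each of 15 main lists and the 2 of other lists with the smallest p, and a fixed set of genes, and 4 others are marked as named after their values were seen. The members and lists were chosen with earlier results of these data known. Whether both pools of a group came from separate mice is not stated in the labels. P-values therefore measure the spread between arrays, which may be technical, and precision is limited by how few arrays there are. Some results are not reported here.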

Additional observations from a re-analysis of the deposited data

Results flagged for a closer look

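For 7 of 38 lists, the list mean over genes measured on all 16 arrays separated the diets in opposite directions in the 2 genotypes. In each genotype both EPA arrays lay on 1 side of both OA arrays. The difference between the genotypes was not tested for these means. Xenobiotic metabolism genes differed by 0.36 with the inactivated Il10 allele and -0.12 without it, and smooth muscle markers by 0.22 and -0.08. Interferon gamma response genes differed by -0.27 and 0.12 in the same order, and macrophage markers by -0.15 and 0.24. Matrix metalloproteinases and inhibitors differed by -0.13 and 0.24, collagen and stroma markers by -0.11 and 0.13, and antimicrobial and acute phase genes by -0.036 and 0.20. The antimicrobial means of Il10-/- mice barely separated, at -0.486 and -0.457 on EPA and -0.456 and -0.416 on OA.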

How the results depend on the processing

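The count of genes called for EPA minus OA in Il10-/- mice was 0 in all alternatives run except 2. It was 3 when only the 8 Il10-/- arrays were fitted (Chgb, Ugt2b5 and an unnamed feature) and 2 with array weights (Ugt2b5 and an unnamed feature). With the replicate block it was 0, with 1062 genes at an unadjusted p under 0.05 and a smallest limma adjusted p of 0.108. The block gave 2434 called genes between the genotypes on CO. Same-numbered pools of EPA and OA deviated together at r = 0.341, but over all pairs of groups the value ran from -0.4 to 0.41, so the numbers were not taken as pairs. Leaving out 1 array in turn gave 0 genes for EPA minus OA in Il10-/- mice, 0 to 5 in C57BL/6J mice and 0 to 4 for the difference between the genotypes, with 5 and 4 without C57BL/6J EPA pool 2. On CO it gave 867 to 3660, with 1149 and 867 without the Il10-/- pools 1 and 2 and 3660 without C57BL/6J pool 1, and array weights gave 762.

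Leaving out 1 array moved the list medians from 0.17 to 0.38 for xenobiotic metabolism, 0.11 to 0.22 for enteroendocrine genes, 0.11 to 0.29 for colonocyte transport, -0.31 to -0.15 for cholesterol synthesis, -0.34 to -0.049 for the cell cycle, -0.21 to -0.11 for macrophage markers and 0.16 to 0.27 for smooth muscle. With OA pool 1 counted as EPA, they were 0.084 for enteroendocrine genes, -0.14 for cholesterol synthesis and 0.11 for smooth muscle, and the mean of every feature of a symbol gave 0.13 for enteroendocrine genes. Of the genes called on CO, 84.5% had the opposite sign on EPA, against 75.6% with OA pool 1 counted as EPA, 87.5% with array weights and 76.6 to 86.5% with 1 array left out.

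Signs turned for small medians. They became 0.017 for antimicrobial genes with the most shared value kept and 0.019 for crypt base markers with the mean of every feature. Without EPA pool 1 they were 0.0595 for T cell markers and -0.0318 for eicosanoid genes. MHC class II genes were at 0.028 without EPA pool 2. Neutrophil markers and fatty acid synthesis genes were at 0.032 and 0.0098 without OA pool 1, and at 0.0608 and 0.0143 with it counted as EPA. Oxidative stress, respiratory chain, junction and immediate early medians also turned in at least 1 alternative. With 1 array left out, the medians ran from -0.012 to 0.087 for eosinophil markers, negative without OA pool 2, and from -0.032 to 0.045 for endothelial markers, positive without EPA pool 2 or OA pool 2. Of 84 named genes, 10 turned their sign in at least 1 alternative. With 1 array left out, Cd36 ran from -0.31 to 0.029, Cxcl10 from -1.04 to 0.32, Ifng from -0.45 to 0.14 and Il1b from -0.28 to 0.0054, each positive without EPA pool 1. Ptgs2 ran from -0.10 to 0.26, negative without EPA pool 1 or OA pool 2, Fads1 from -0.37 to 0.071, positive without OA pool 1, and Lcn2 from -0.42 to 0.15, positive without EPA pool 2 or OA pool 1. With OA pool 1 counted as EPA, Fads1 was at 0.20, Il10 at 0.022, Lcn2 at 0.10 and S100a9 at -0.15. Il1b was at 0.049 after quantile normalization and Srebf2 at 0.022 with the mean of every feature. The cause of these changes was not tested. The alternatives for the C57BL/6J, CO and opposite-sign results were chosen after seeing the data.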
